A study of Mus musculus with 35 samples.

Results

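Tregs (regulatory T cells), a CD4+ lineage that holds immune reactions in check, were compared between visceral adipose tissue (VAT) and spleen in the middle of the dark phase, when mice are active and feeding. The comparison took every library labelled ZT16 or ZT20, where ZT is hours after lights on: 5 VAT libraries (ZT16 A, B and C, ZT20 A and C) and 6 spleen libraries (A, B and C at each time), 11 of the 35 libraries of the series. The other 24, at ZT0, ZT4, ZT8 and ZT12 with 3 libraries per tissue and time, served to measure how far the mid-dark tissue difference departed from that at the rest of the day. The animals of every group were wild-type C57BL/6 males, retired breeders more than 35 weeks of age, kept under 12 h of light and 12 h of dark, and no treatment is labelled. Each library was made from 1000 CD4+ CD25+ cells sorted by flow cytometry in 2 passes. Nothing in the labels ties the libraries of a group to different mice. The p-values therefore reflect only library-to-library spread, part of which may be technical. They give no steps of tissue preparation, so handling before the sort and tissue of origin cannot be told apart.

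Cells meet stress with several transcriptional programs. Heat shock factor 1 raises cytosolic chaperones when proteins misfold, the unfolded protein response raises chaperones of the endoplasmic reticulum (ER), and the kinases of the integrated stress response slow translation while sparing the transcription factor ATF4. Redox stress acts through NRF2, DNA damage through p53, low oxygen through HIF-1, and the daily surge of glucocorticoids through the glucocorticoid receptor. Immediate early genes such as Fos respond within minutes to growth factor, antigen or mechanical signals. Tregs of adipose tissue are a long-lived population marked by the nuclear receptor PPARg and the alarmin receptor ST2. The stress genes were 183 genes in 9 lists, of which 178 passed the filter on low counts. Cryab, Atf5, Chac1, Cebpb and Vegfa did not.

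The mid-dark libraries held 2441213 to 6260185 counts. Levels are CPM, counts scaled to a common library size after TMM normalization, and differences are log2 of VAT over spleen, with standard errors. Foxp3, which defines the lineage, was at 652 to 724 CPM in VAT and 501 to 638 CPM in spleen, so both sorts held Tregs. The sorts were not alike in Treg markers. A list of 7 Treg genes, Foxp3 included, summed to 6290 to 7248 CPM in VAT and 3176 to 3710 CPM in spleen. Of the 7 genes 5 were higher in VAT and 1 lower. All 11 genes of a fat-resident Treg list were higher in VAT (adjusted p under 0.05, edgeR), and their summed level was 13322 to 15861 CPM there and 456 to 706 CPM in spleen. Markers of 6 B cell genes summed to 133 to 304 CPM in VAT and 1660 to 3042 CPM in spleen, nearly all of it Ighm. Without Ighm the sums were 12.3 to 33.1 and 32.4 to 50.6 CPM. Macrophage or monocyte markers summed to 8.63 to 13.8 CPM in VAT and 39.2 to 70.6 in spleen, endothelial markers to 23.5 to 39.8 and 157 to 343, and stromal markers to 91.7 to 116 and 19.9 to 46.9. NK cell or ILC markers summed to 16.4 to 33.4 CPM in VAT and 1.44 to 4.63 in spleen. Such sums can rest on few members. Among members that passed the filter on low counts, 1 of 3 NK cell or ILC genes was higher in VAT and 1 lower. Of 5 stromal genes 1 was higher and 0 lower, of 3 endothelial genes 0 and 1, and of 6 macrophage or monocyte genes 0 and 4. The sums of these lists, Ighm included, separated the tissues with the smallest p that an exact permutation test within times allows here (two-sided p = 0.005, 200 arrangements, adjusted p = 0.00929 over 13 marker lists). Adipocyte markers summed to 7.37 to 22.4 CPM in VAT and 18.8 to 32.8 in spleen (adjusted exact permutation p = 0.0325). The ranges overlapped for neutrophil markers (0.552 to 2.89 CPM in VAT, 0 to 1.31 in spleen, S100a8 at 0 throughout), dendritic cell markers (14.5 to 54.0 and 11.2 to 22.4), CD8 T cell markers (7.97 to 27.7 and 7.92 to 17.9), erythroid markers (1.61 to 7.0 and 3.57 to 104) and plasma cell markers (0 to 2.74 and 1.19 to 93.3), none with an adjusted exact permutation p under 0.05. The part of such cells in the results was not tested.

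In the mid-dark phase 2990 of 15910 genes were higher in VAT (18.8%) and 2672 lower (16.8%) when p was adjusted over all genes and held under 0.05 (quasi-likelihood test in edgeR) on the 11 libraries with time as a covariate. 1804 of the former and 1654 of the latter differed at least 2-fold. Of the 10 most abundant genes at least 4-fold higher in VAT with no overlap, 6 are immediate early or activation genes, Junb, Nfkbia, Dusp1, Fos, Nr4a1 and Cd69, beside the cytoskeletal genes Vim and Ahnak, the inhibitory receptor gene Klrg1, and Serinc3. Of the corresponding 10 lower genes the most abundant in spleen was Ighm. They also held Ccr7, the chemokine receptor gene of lymphoid recirculation (11 to 48.8 CPM in VAT, 583 to 723 in spleen), with Ms4a6b, Ms4a4b, Smc4, Utrn, Izumo1r and Ifi47. When plain library totals replaced the TMM factors the split was 1918 higher and 5205 lower, because that scaling moved the median of all genes by -0.37. Fewer cells expressing a gene and less RNA of it per cell cannot be told apart in such bulk samples.

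Of the 178 stress genes tested, 103 were higher in VAT and 21 lower (82 and 36 with library totals), against 18.8% and 16.8% of all genes. Those shares over all genes are also the ones to set beside the counts of each list below. The median log2 difference of the stress genes was 0.70, against -0.07 over all genes. The lists were unequal in this. The medians ran from 3.78 for the 32 immediate early genes and 1.46 for the 13 glucocorticoid-responsive genes to 0.25 for the 27 heat shock genes and 0.02 for the 16 genes of the integrated stress response.

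**Figure D1:**
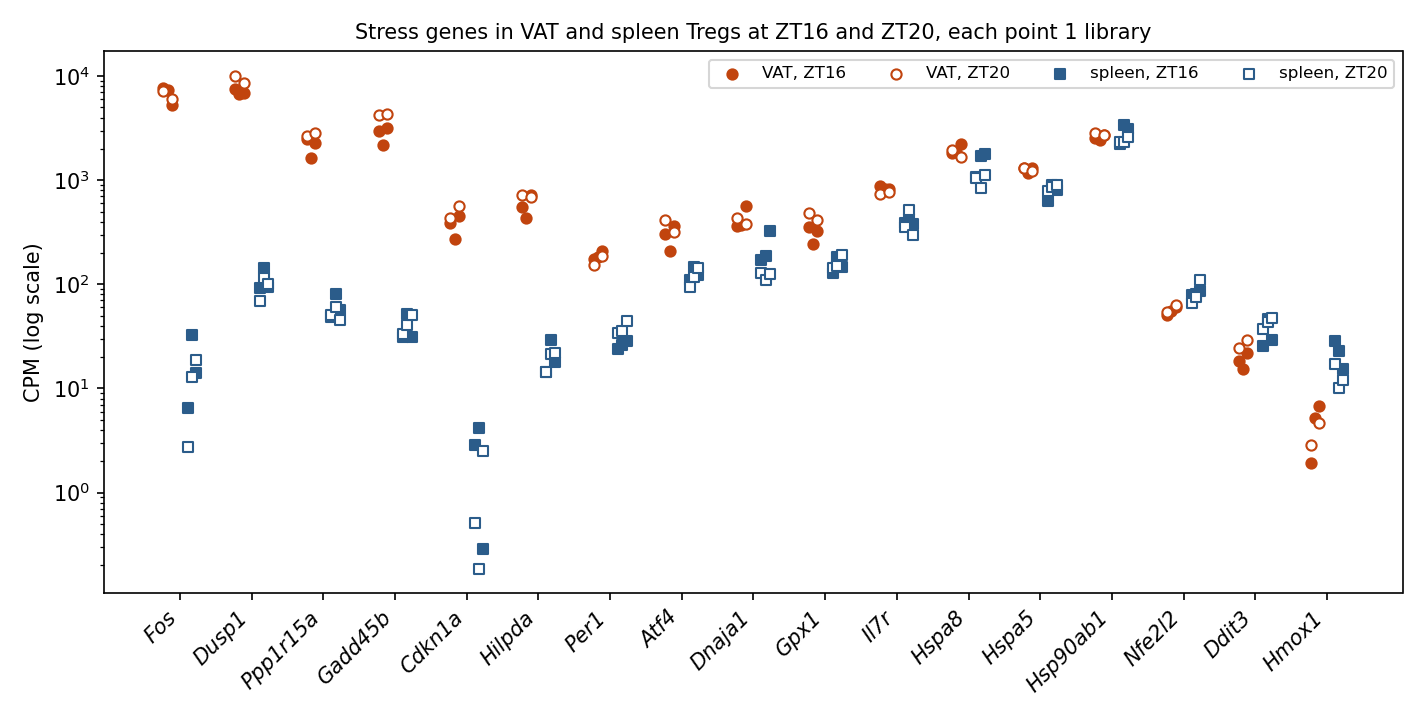
CPM on a log axis of 17 stress genes in each of the 5 VAT libraries (circles) and 6 spleen libraries (squares), filled at ZT16 and open at ZT20. A spleen value of 0 would not be drawn. Fos, Dusp1, Ppp1r15a, Gadd45b, Cdkn1a and Hilpda lie far apart between tissues, the values of Hsp90ab1 overlap, and Nfe2l2, Ddit3 and Hmox1 are lower in VAT.

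Immediate early genes differed most. Fos (chr12:85473890-85477273, whole gene, GENCODE M21 on GRCm38), which pairs with a Jun protein as the AP-1 transcription factor, stood at 7622, 7353 and 5272 CPM in the VAT libraries of ZT16 and at 7171 and 6055 in those of ZT20. In spleen it ran from 2.72 to 32.7 CPM with a median of 13.5. No spleen library came near any VAT library (log2 difference 8.85 ± 0.56, adjusted p = 1.79e-06, edgeR). Dusp1, the phosphatase that switches MAP kinases off, was at 7538, 6778, 6959, 10000 and 8575 CPM in VAT and at 68.6 to 143 in spleen, median 96.5 (6.29 ± 0.19). Junb, another AP-1 subunit, was at 14660 to 24881 CPM in VAT and 298 to 505 in spleen (5.59 ± 0.16). Nfkbia, the inhibitor of NF-kB that NF-kB itself induces, was at 5349 to 11802 CPM against 711 to 1039 (3.38 ± 0.15). Of the 32 genes 28 were higher and 2 lower: Socs3 (-1.40), a brake on cytokine receptors, and Egr2 (-1.20). Klf2, which keeps T cells recirculating, was at 6.55 to 27.8 CPM in VAT and 15.4 to 24.2 in spleen (0.03 ± 0.28), and Myc also did not pass.

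The integrated stress response did not move as a block. Ppp1r15a (chr7:45522916-45526268), which restarts translation by guiding a phosphatase to eIF2, was at 2488, 1625 and 2292 CPM in VAT at ZT16, 2647 and 2815 at ZT20, and 45.2 to 80.6 in spleen, median 53.8 (5.38 ± 0.18, adjusted p = 6.71e-14, edgeR). Atf3, a stress-induced repressor, was at 629 to 1224 CPM in VAT and 0 to 0.712 in spleen. Atf4 itself differed less, at 211 to 412 against 95.3 to 147 CPM (1.39 ± 0.15). Among the targets of ATF4, the asparagine synthetase gene Asns (2.30), the amino acid transporter gene Slc3a2 (0.82) and the serine synthesis gene Psat1 (0.65) were higher. In contrast, Ddit3, which encodes the pro-apoptotic factor CHOP, was lower in VAT, at 18.2, 15.5, 21.9, 24.4 and 29.2 CPM against a spleen range of 25.6 to 47 with a median of 40.6 (-0.78 ± 0.20, adjusted p = 0.00392, edgeR), with 1 VAT library inside the spleen range. Trib3 (-2.27), Phgdh (-0.87) and Mthfd2 (-0.73) were lower too. In all 6 of 16 members were higher and 4 lower, against 18.8% and 16.8% of all genes.

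Of 21 targets of p53 and related damage genes 9 were higher in VAT, 3 were lower and 9 did not pass, with a median of 0.50. Cdkn1a (chr17:29090976-29100727), the cell cycle inhibitor p21, was at 385, 275, 451, 435 and 564 CPM in VAT and at 0.186 to 4.19 in spleen, median 1.5 (8.08 ± 0.48, adjusted p = 3.21e-07, edgeR). Gadd45b, a stress sensor that activates p38 and JNK kinases, was at 2191 to 4287 CPM against 30.9 to 52.4 (6.41 ± 0.19). Pmaip1 (4.61), which encodes the pro-apoptotic protein NOXA, and the kinase genes Plk2 (4.27) and Plk3 (3.68) were also higher. Trp53, the gene of p53, was lower in VAT (-0.58 ± 0.13), with 140, 130 and 157 CPM at ZT16 but 245 and 229 at ZT20, where the spleen had 249 to 294. Lower as well was the death receptor gene Fas, at 14.9 to 43.3 CPM against 97.1 to 128 (-2.04 ± 0.21).

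Of 23 redox and metal genes 15 were higher in VAT, among them the ferritin genes Fth1 (977 to 1561 CPM against 651 to 999, 0.63 ± 0.11) and Ftl1 (0.64), Sqstm1, an autophagy receptor (0.99 ± 0.11), and Gpx1, which reduces peroxides (243 to 484 against 127 to 192 CPM, 1.23 ± 0.14). Mt1, a metallothionein that binds zinc and copper, was at 23, 12.2 and 18.9 CPM at ZT16 and 20.9 and 19.9 at ZT20, and at 0 to 0.34 in spleen. The 2 members that were lower were Nfe2l2, the gene of NRF2 (51.3 to 62.8 CPM in VAT, 66.4 to 109.7 in spleen, -0.53 ± 0.15), and its target Hmox1, heme oxygenase (1.92 to 6.72 against 10.1 to 28.8, -2.07 ± 0.34). For both, no VAT library reached the lowest spleen library.

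Among 16 hypoxia genes 7 were higher and 4 lower. Hilpda, which lets cells store lipid droplets, was at 551, 432, 721, 720.2 and 683 CPM in VAT against 14.3 to 29.3 in spleen, median 19.8 (4.97 ± 0.20, adjusted p = 1.57e-12, edgeR). Egln3, a HIF prolyl hydroxylase, was at 105 to 147 against 3.17 to 6.12 CPM (4.85 ± 0.18). Lower in VAT were Pdk1, which keeps pyruvate out of mitochondria (-1.52), Pfkfb3, which speeds glycolysis (-0.70), Kdm3a and P4ha1. Hif1a was at 321, 544 and 275 CPM in VAT at ZT16 and 241 and 279 at ZT20, and at 131 to 261 in spleen, so the tissues overlapped, and the call (0.70 ± 0.22, adjusted p = 0.0268, edgeR) was lost at ZT20 alone (0.29, adjusted p = 0.162).

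Of 13 glucocorticoid-responsive genes 9 were higher. The receptor gene Nr3c1 was at 476, 536, 536, 463 and 431 CPM in VAT and 116 to 154 in spleen (1.85 ± 0.10, adjusted p = 2.57e-12, edgeR). Tsc22d3, the classical target GILZ, was at 609 to 1056 against 285 to 637 CPM with some overlap (0.91 ± 0.14), and Per1, a clock gene with a glucocorticoid response element, at 153 to 208 against 23.8 to 44.9 (2.54 ± 0.15). Pik3ip1 was lower (-1.68), and Txnip did not pass (-0.15 ± 0.14). Of 7 genes that respond to body temperature, Rbm3 (162 to 239 CPM against 144 to 183, 0.37 ± 0.11), Srsf2 (0.62) and the splicing kinase gene Clk1 (0.98 ± 0.11) were higher by TMM scaling. With library totals Rbm3 was at -0.0017, again by the shift of all genes, and the list median relative to all genes was 0.44 by TMM and 0.43 by totals.

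The ER list was higher in VAT by small steps. Of 23 members 14 were higher and 2 lower, Dnajc3 (-0.53 ± 0.12) and Edem1 (-0.76), with a median of 0.50 (9 higher and 3 lower with library totals). Hspa5, the ER chaperone BiP, was at 1314, 1168 and 1308 CPM in VAT at ZT16 and 1298 and 1213 at ZT20, above every spleen library (628 to 899, median 839.6; 0.64 ± 0.10, adjusted p = 3.77e-05, edgeR). The sensor gene Atf6 differed far more, at 83.7 to 131 against 10.7 to 23.5 CPM (2.85 ± 0.20), as did Ern1 (1.80), which encodes the sensor IRE1, and Xbp1, the factor whose mRNA IRE1 splices (276 to 308 against 79.6 to 174 CPM, 1.24 ± 0.13). ATF6 and the factor NF-Y act through the ER stress response element, CCAAT and CCACG with 9 bases between them. The stretches below show that element, in capitals on either strand, in the promoters of 3 of the ER chaperone genes that were higher in VAT (RefSeq, build GRCm38.p6, 60 bases each, read 5′ to 3′ along the gene's strand).
Hspa5 (chr2:34772004-34772063, plus strand): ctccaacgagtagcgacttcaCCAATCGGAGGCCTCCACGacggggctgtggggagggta
Hsp90b1 (chr10:86705513-86705572, minus strand): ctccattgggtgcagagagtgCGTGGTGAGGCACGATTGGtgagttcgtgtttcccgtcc
Creld2 (chr15:88819499-88819558, plus strand): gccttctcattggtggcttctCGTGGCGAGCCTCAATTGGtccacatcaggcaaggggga
In the 250 bases before the start, 8 of 19 ER genes with a promoter entry held the element (42.1%), against 0.13% of 27025 genes and 0 of 21 heat shock genes. The 8 did not move alike: Hspa5, Hsp90b1 (0.40 ± 0.11), Creld2 (0.50 ± 0.17), Pdia6 (0.33 ± 0.11) and Calr (0.28 ± 0.11) were higher, Dnajc3 was lower, and Canx and Syvn1 did not pass. Hsp90b1 lost its call with library totals (0.027, adjusted p = 0.848, edgeR), at ZT16 alone (0.43, adjusted p = 0.0775) and at ZT20 alone (0.35, adjusted p = 0.0661). The values of Pdia6 and Calr are smaller in size than the shift of all genes with library totals (-0.37). Their calls under that scaling are not reported here. A match of letters is a description and not a shown binding site.

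Heat shock genes were mixed between tissues. By TMM scaling 12 of 27 were higher in VAT and 3 lower. Library totals gave 6 and 11, through the shift of all genes given above, and relative to the median of all genes the list median was 0.32 under both scalings. Dnaja1, an HSP40 cochaperone, was at 366, 371, 562, 430.4 and 376 CPM in VAT and 111 to 326 in spleen (1.28 ± 0.20, adjusted p = 0.000133, edgeR). Bag3, which hands clients of HSP70 to autophagy, was at 24.1 to 61 against 8.28 to 18.9 CPM (1.86 ± 0.27), without overlap. Hspe1, the mitochondrial cochaperonin HSP10, was lower in VAT, at 20.9, 25.8, 26.4, 40.5 and 40.1 CPM against 47.7 to 84.8 (-1.03 ± 0.21). Hsp90ab1, the constitutive HSP90 gene, did not pass (2444 to 2830 CPM in VAT, 2204 to 3358 in spleen, -0.01 ± 0.11), and Hsf1 was lower (-0.37 ± 0.13).

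Heat shock genes had more positive VAT minus spleen values at ZT20 than at ZT16, though none passed after adjustment. The contrast of the tissue difference at ZT20 minus that at ZT16, in the fit of all 35 libraries, called 0 of 15910 genes (0%) at an adjusted p under 0.05 (lowest adjusted p = 0.199, edgeR) and 27 with DESeq2. Without the filter on low counts it called 62, and without spleen ZT16 A 21. At an unadjusted p under 0.05, 1503 genes (9.45%) moved in either direction, and so did 11 of the 27 heat shock genes (40.7%), all 11 toward a more positive difference at ZT20. They were Hspa1a, Hspa1b, Hspa8, Hspe1, Hsp90aa1, Dnaja1, Dnajb1, Chordc1, Cacybp, Fkbp4 and Ahsa1. Hspa1a and Hspa1b are near-identical copies between which reads can be split. Adjusted p of the 11 ran from 0.249 (Hspe1, 1.15 ± 0.31) to 0.502 (Hspa8, 0.48 ± 0.23, edgeR). The count was not planned, so it describes these libraries and is not a test of the list. Other stress lists also stood above the share of all genes. Of 32 immediate early genes 10 had an unadjusted p under 0.05 (31.2%), 6 positive and 4 negative. Of all 178 stress genes 33 did (18.5%), 22 positive and 11 negative.

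For several of these genes the spleen values differed most between the times. Hspa8 (chr9:40800984-40810087), the constitutive HSP70, was at 1070, 1709 and 1800 CPM in spleen libraries A, B and C of ZT16 and at 1052, 851 and 1118 in those of ZT20, while VAT had 1837, 1849 and 2210 at ZT16 and 1934 and 1686 at ZT20. Hsp90aa1, the inducible HSP90, showed the same order in spleen, with 73.4, 114 and 139 CPM at ZT16 and 62.2, 76.2 and 80.5 at ZT20. Dnajb1, the cochaperone that returns HSP70 to HSF1, was at 101, 130 and 239 and then at 82.4, 61.1 and 105. Libraries B and C of spleen ZT16 were the high ones in each case, and library A was near the ZT20 level. Hspe1 differed in VAT too, with the ZT20 libraries above those of ZT16. Hsph1, an HSP110, was not among the 11, and both of its tissues had low values at ZT20: 124, 215 and 151 CPM in VAT at ZT16 against 55.6 and 46.4, and 179, 194 and 386 in spleen against 102, 71.4 and 44.5. Without spleen ZT16 C the 11 genes became 6, and without spleen ZT16 A they became 13. With the length slope of each library as a covariate they became 7. The shares over all genes in these settings are not reported here. The length slope, of expression on transcript length, was lowest of all 35 libraries in the 2 of VAT ZT20 (-0.0924 and -0.079), and its part in the result was not tested further.

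**Figure D2:**
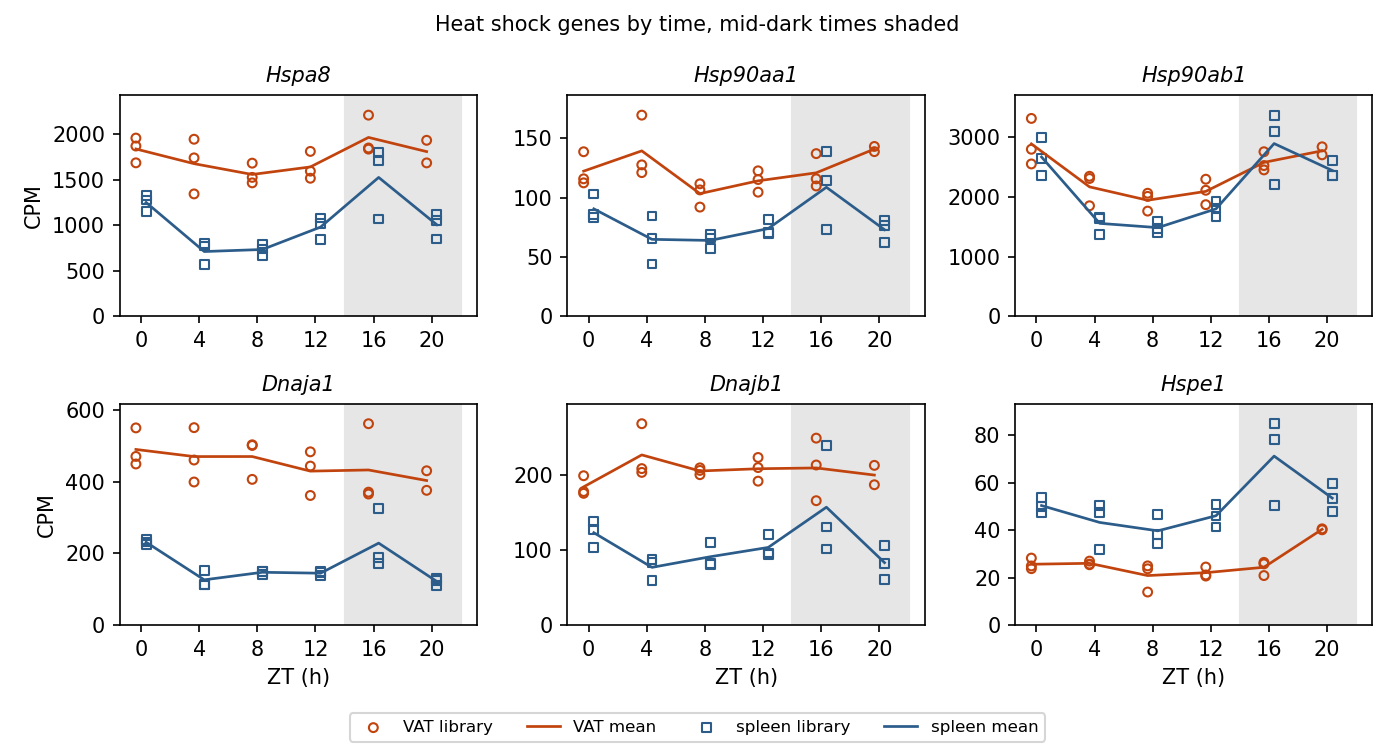
CPM of 6 heat shock genes at the 6 times in each VAT library (circles) and spleen library (squares), with lines through the group means and the mid-dark times shaded. In spleen, libraries B and C of ZT16 stand above the ZT20 libraries for Hspa8, Hsp90aa1, Dnaja1, Dnajb1 and Hspe1, and ZT0 is also high for Hspa8, Hsp90ab1 and Dnaja1.

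The question of the comparison was whether any stress gene has a mid-dark tissue difference that departs from the one at ZT0, ZT4, ZT8 and ZT12. The departure was taken as the mean VAT minus spleen difference at ZT16 and ZT20, minus the mean of the same difference at the other 4 times, in 1 edgeR fit of 35 libraries and 12 groups. It was called for 0 of 15910 genes (0%), with a lowest adjusted p of 0.519, and DESeq2 also called 0. Without the filter on low counts 19 genes were called, and without spleen ZT16 A 6, none of them in a stress list. At an unadjusted p under 0.05, 523 genes (3.29%) had a more positive and 502 (3.16%) a more negative difference in the mid-dark. Of the 178 stress genes 12 did (6.74%), 2 positive and 10 negative. Their median departure was -0.04, against 0.01 over all genes.

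**Figure D3:**
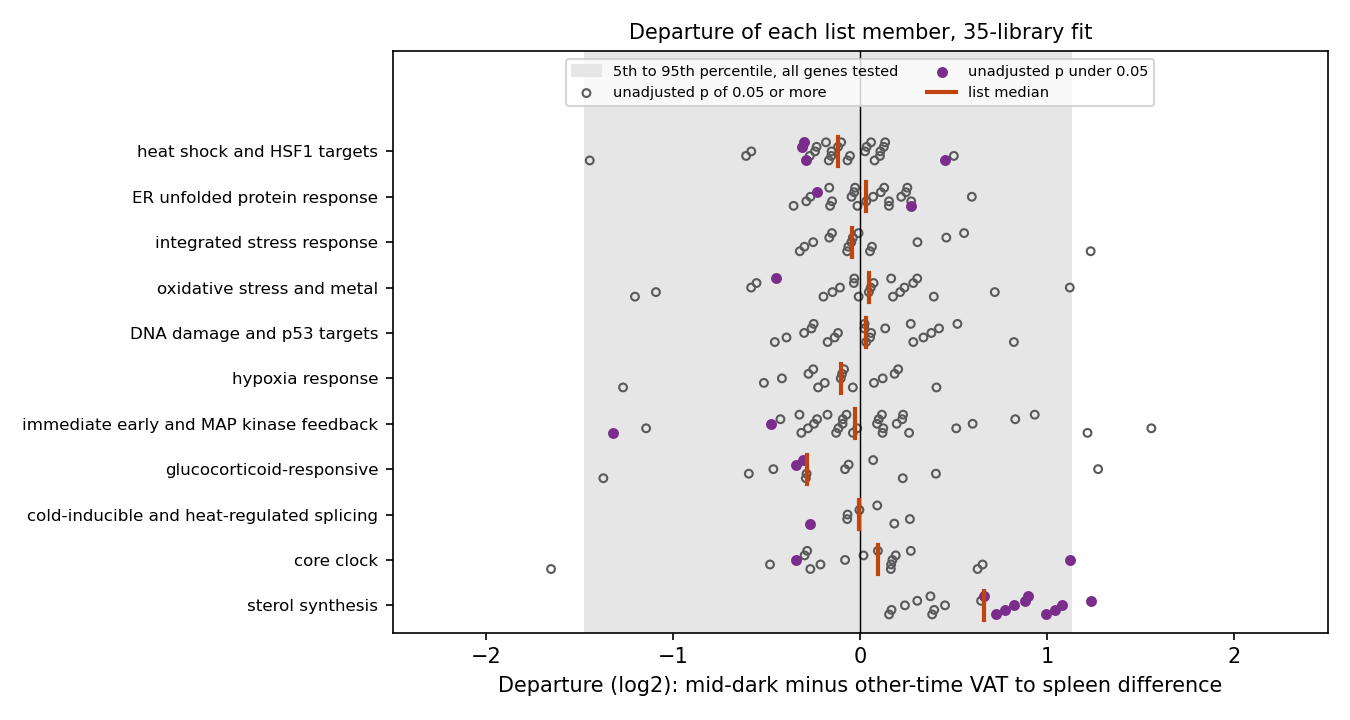
Departure (log2) of every tested member of the 9 stress lists, the core clock and sterol synthesis, from the 35-library fit. The grey band holds the middle of all genes, from the 5th percentile (-1.47) to the 95th (1.13), filled purple points have an unadjusted p under 0.05, bars are list medians, and 1 core clock gene lies beyond the axis. All 19 sterol genes lie right of 0, while the stress lists lie on both sides. No departure passed after adjustment.

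The precision was enough to bound most stress genes within 1 log2 unit of 0, but not most of them within 0.5. The 95% interval of the departure lay within 1 log2 unit of 0 for 131 of the 178 stress genes and within 0.5 for 59. For Dusp1 the interval was -0.37 to 0.23, for Junb -0.41 to 0.06, for Gadd45b -0.45 to 0.21, and for Atf4 -0.36 to 0.23. In this fit the 4 genes differed between tissues by 6.32, 5.62, 6.43 and 1.41 in the mid-dark and by 6.39, 5.80, 6.55 and 1.47 at the other times. Intervals were wider for genes with few counts in spleen, at -1.30 to 1.40 for Cdkn1a and -1.04 to 0.81 for Fos.

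The 12 stress genes at an unadjusted p under 0.05 were chosen after their values were seen, and none passed after adjustment (adjusted p 0.705 to 0.758, edgeR). They were 6.74% of the stress genes, against 6.44% over all genes at that threshold. Most had a lower VAT minus spleen value in the mid-dark, which is not a smaller difference for Nfe2l2, a gene lower in VAT. Hspa8 differed by 0.61 ± 0.11 in the mid-dark and 0.90 ± 0.08 at the other times, a departure of -0.30 ± 0.14 (interval -0.58 to -0.02). Its spleen libraries ran from 851 to 1800 CPM in the mid-dark and from 567 to 1324 at the other times, and its VAT libraries from 1686 to 2210 and from 1345 to 1958. Hsp90ab1 went from 0.30 ± 0.06 to 0.01 ± 0.09 (-0.29 ± 0.11), with spleen at 1367 to 2990 CPM at the other times. Hspa5 departed by -0.23 ± 0.09, St13, a cochaperone of HSP70, by -0.31 ± 0.13, and Nfe2l2 by -0.45 ± 0.21. The other negative values were those of Srsf7 (-0.27 ± 0.10), Per1 (-0.35 ± 0.14), Il7r (-0.31 ± 0.13), Klf10 (-0.48 ± 0.20) and Fosb (-1.32 ± 0.62). The 2 positive values belonged to Ptges3, the HSP90 cochaperone p23 (0.43 ± 0.09 at other times, 0.88 ± 0.14 in the mid-dark, departure 0.45 ± 0.17), and Xbp1 (0.27 ± 0.12). The number 12 rose to 24 without spleen ZT16 A, to 24 with ZT16 as the only mid-dark time, and to 20 with no filter on low counts. Over 21 alternative settings it ran from 9 to 24. The share over all genes in those settings is not reported here, so these numbers cannot be set against 6.44%.

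Each tissue's own change from the other times to the mid-dark came from the same fit. In VAT 657 genes were higher (4.13%) and 578 lower (3.63%), and in spleen 540 were higher (3.39%) and 514 lower (3.23%), at an adjusted p under 0.05. Of the 178 stress genes 15 rose and 10 fell in VAT, and 23 rose and 8 fell in spleen. In spleen 4 of 27 heat shock genes rose and 0 fell: Hsp90ab1 by 0.54 ± 0.08 (adjusted p = 0.00029, edgeR), Hspa8 by 0.47 ± 0.09, Hspe1 by 0.47 ± 0.13 and Fkbp4 by 0.41 ± 0.10. For Hspa8 only libraries B and C of spleen ZT16 lay above the range of the other times. Spleen ZT16 A and the spleen ZT20 libraries lay inside it. In VAT only Fkbp4, a cochaperone of steroid receptors, passed among the heat shock genes (0.54 ± 0.10), and Hsp90ab1 had 0.25 ± 0.08 with an adjusted p of 0.0527. As the departures above did not pass, these changes are not shown to differ between the tissues. Several genes rose in both: Pdia3, an ER disulfide isomerase, by 0.40 ± 0.08 in VAT and 0.29 ± 0.07 in spleen, Pdia6 by 0.34 ± 0.09 and 0.50 ± 0.08, Fth1 by 0.30 ± 0.08 and 0.34 ± 0.08, and Gpx1 by 0.47 ± 0.10 and 0.41 ± 0.09. Falls in VAT included Klf10 (-0.69 ± 0.15) and the hypoxia genes Kdm3a (-0.87), Pfkfb3 (-0.70), Pdk1 (-0.67) and Bnip3l (-0.28). Kdm3a also fell in spleen (-0.78). Summed B cell markers in spleen were 1660 to 3042 CPM in the mid-dark and 1184 to 1929 at the other times, and their part in the spleen changes was not tested. The length slope was -0.0924 to -0.079 in VAT at ZT20 and -0.0489 to -0.037 in spleen at ZT20. At the other times it was higher in every library, at -0.022 to 0.0577 in VAT and -0.0291 to 0.0579 in spleen. The changes within a tissue were not refitted with it, and its part in them was not tested.

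One list outside stress stood at the positive end of the departures. Sterol synthesis genes make cholesterol from acetyl-CoA and are switched on by SREBP2 when membrane sterol runs low. All 19 genes had a positive departure, with a median of 0.66, and 10 of them had an unadjusted p under 0.05 (52.6%), none negative. Over all genes 3.29% had a more positive difference at that threshold. The list was chosen with earlier results of these data known and the count was not planned. It therefore describes these libraries and is not a test of the list. No sterol gene passed after adjustment, the lowest being Cyp51, Sqle and Mvd at an adjusted p of 0.519. Without the filter on low counts Cyp51 (adjusted p = 3.23e-06), Sqle (0.00158), Msmo1 (0.0231) and Mvd (0.0333) passed in edgeR, so these calls turn on the filter. Genes of 1 pathway measured in the same libraries are not independent. In the mid-dark comparison itself 15 of the 19 were higher in VAT and 0 lower, also with library totals (13 and 0).

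Cyp51 (chr5:4081145-4104746), the lanosterol demethylase, was at 179, 212 and 107 CPM in VAT at ZT16 and 154 and 138 at ZT20, and at 31.3 to 56.1 in spleen, median 46.5. At the other times VAT had 89.4 to 203 CPM and spleen 51.6 to 122, so the tissues overlapped then and not in the mid-dark. The difference was 1.77 ± 0.19 in the mid-dark and 0.69 ± 0.13 at the other times, a departure of 1.08 ± 0.23 (interval 0.62 to 1.54, unadjusted p = 4.1e-05). Sqle, squalene epoxidase, was at 76.7 to 126 CPM in VAT and 12.7 to 41.3 in spleen (departure 1.00 ± 0.25). Mvd, which makes isopentenyl diphosphate, differed by 0.00060 ± 0.12 at the other times and 0.90 ± 0.18 in the mid-dark, with 50.3 to 85.4 CPM in VAT and 19.9 to 61.3 in spleen. Msmo1, a sterol oxidase, went from -0.00071 ± 0.12 to 0.78 ± 0.18. Fdft1, squalene synthase (0.82 ± 0.25), Lss (0.88 ± 0.27), Hsd17b7 (0.73 ± 0.29), and Fdps (0.66 ± 0.26) were also among the 10.

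**Figure D4:**
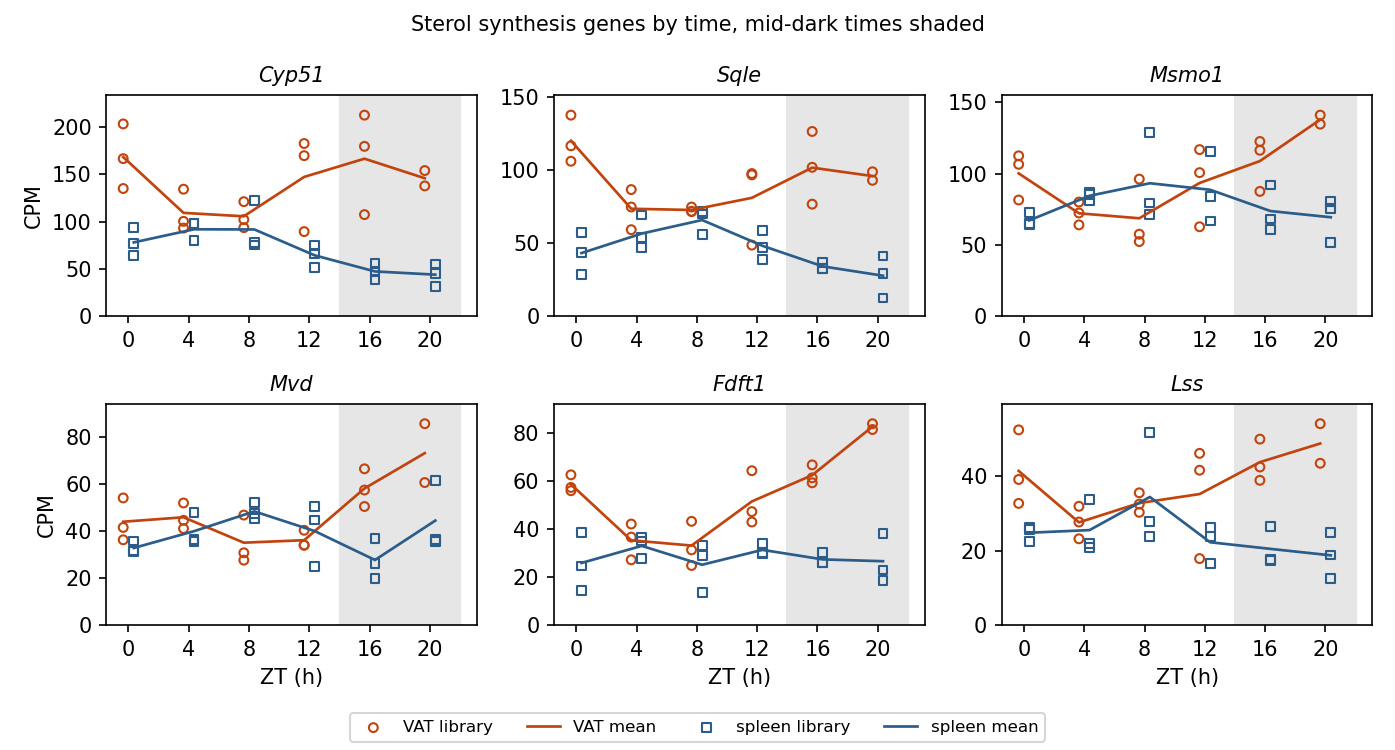
CPM of 6 sterol synthesis genes at the 6 times in each VAT library (circles) and spleen library (squares), with lines through the group means and the mid-dark times shaded. The tissues are separate in the mid-dark for Cyp51, Sqle, Fdft1 and Lss, and their values meet or cross at ZT4 or ZT8 in all 6 panels.

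Each tissue's own change in the sterol list is given beside the share over all genes, and since no sterol departure passed after adjustment these changes are not shown to differ between the tissues. In VAT 4 of 19 genes rose from the other times to the mid-dark, Mvd (0.71 ± 0.16), Fdft1 (0.73 ± 0.18), Hsd17b7 (0.71 ± 0.19) and Msmo1 (0.57 ± 0.15), and 0 fell, against 4.13% and 3.63% of all genes. In spleen 0 of 19 rose and 7 fell, against 3.39% and 3.23% of all genes, and among the 7 were Hmgcs1 (-0.87 ± 0.24), Cyp51 (-0.82 ± 0.16), Sqle (-0.78 ± 0.18), Insig1 (-0.51 ± 0.14) and Srebf2 (-0.37 ± 0.10). The length slope was not fitted in these changes either. Over 21 alternative settings the number of sterol genes with an unadjusted p under 0.05 and a more positive difference ran from 9 to 14. The share over all genes in those settings is not reported here. SREBP2 acts with NF-Y, which reads CCAAT, and the stretches below show that box in capitals, on either strand, for a gene that fell in spleen and a gene that rose in VAT (RefSeq, build GRCm38.p6, 60 bases each).
Cyp51 (chr5:4104698-4104757, minus strand): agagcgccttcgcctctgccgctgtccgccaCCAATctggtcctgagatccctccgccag
Mvd (chr8:122443423-122443482, minus strand): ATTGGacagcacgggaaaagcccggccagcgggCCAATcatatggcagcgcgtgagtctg
All 13 sterol genes with a promoter entry held CCAAT on 1 of the strands in the 250 bases before the start, against 37.5% of all genes, 38.1% of 21 heat shock genes and 89.5% of 19 ER genes. The CCAAT of the ER stress element is included in these counts. Starts are those of RefSeq. For Cyp51 and Hspa5 the GENCODE gene begins further upstream, so that the stretch shown lies partly or wholly inside the GENCODE gene.

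Among 19 core clock genes 12 were higher in VAT in the mid-dark and Per2 was lower (1.64 to 5.23 CPM against 2.42 to 13.4, -1.27 ± 0.45). Nr1d1, the REV-ERBa repressor, was at 20.8 to 26.5 CPM against 2.09 to 4.85 (2.76 ± 0.27), and Arntl, its target BMAL1, at 98.2 to 107.8 against 46.3 to 75.1 (0.90 ± 0.14). The departures of Per1 (-0.35 ± 0.14) and Per2 (1.12 ± 0.50) had an unadjusted p under 0.05 and did not pass after adjustment.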

How the data were processed

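The unit is the raw read count per gene symbol, as the authors deposited it for 35 libraries, with no molecular identifiers. Reads were aligned with STAR 2.7.3a to mm10 and counted with featureCounts, per the submitters' processing notes. Not given in the sources used here are annotation, strand setting and the version of featureCounts. If strand was ignored, antisense and overlapping genes share reads. Labels give 25-base paired reads from oligo-dT cDNA amplified by PCR.

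TMM factors came from all 35 libraries, and filterByExpr over 12 tissue-by-time groups kept 15910 of 55011 genes. The tissue difference was fitted on 11 libraries with time as a covariate, and the departure on all 35 as a contrast of 12 group means. Both used the robust quasi-likelihood test of edgeR 4.0.16 (R 4.3.3, limma 3.58.1) with Benjamini-Hochberg adjustment over all genes and a threshold of 0.05. Intervals are 95%. Library depth was 2069319 to 6260185 counts, and counting intervals do not cover PCR or sorting error. The fits were also run on simulated counts with dispersions taken from the 35-library fit, and the outcome is not reported here.

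Named were the 10 most abundant genes at least 4-fold higher or lower without overlap, up to 4 abundant members of each list, and called departures, of which there were none. Other members are named to account for counts or were chosen after their values were seen, as were the genes at an unadjusted p under 0.05. Members and lists were chosen with earlier results of these data known. Single values of some genes counted within lists or calls are not reported here. Promoter stretches are from RefSeq (GRCm38.p6). Alternatives were library totals, DESeq2 1.42.0, no filter or a stricter one, a transcript length covariate, replicate blocks, single times and leaving out each library.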

Additional observations from a re-analysis of the deposited data

Results flagged for a closer look

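Among 144 groups of 4 to 10 values tested, 5 held a library far from the others, and chance alone flags about 1 in 20. Hif1a was at 544 CPM in VAT ZT16 B, with the other VAT libraries at 241 to 321. Nfil3, a clock output repressor, was at 74.3 CPM in VAT ZT20 A and 139 to 163 in the others. In spleen, Dnaja1 was at 326 CPM in ZT16 C against 111 to 189, and Srsf5 at 555 CPM in ZT16 A against 297 to 380. Serinc3 was at 591 CPM in spleen ZT20 C against 838 to 929.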

How the results depend on the processing

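Library totals gave 1918 genes higher and 5205 lower in VAT and 36 stress genes lower, and ZT16 alone gave 1562 lower. Without a filter on low counts the departure called 12 genes with a more positive and 7 with a more negative value. ZT20 alone called 1 negative, and leaving out 1 library called 0 to 5 positive and 0 to 1 negative, the 5 and the 1 without spleen ZT16 A. The number of stress genes at an unadjusted p under 0.05 was 20 without the filter, 24 with ZT16 alone and 9 to 24 leaving out 1 library. For ZT20 minus ZT16, 27 genes were called by DESeq2, 62 without the filter and 0 to 21 leaving out 1 library (21 without spleen ZT16 A, 7 without spleen ZT20 C, 2 without VAT ZT16 C). The heat shock genes then more positive numbered 7 with the length slope and 6 to 13 leaving out 1 library, and those more negative 0 to 2. Shares over all genes at an unadjusted p under 0.05 in these settings are not reported here.

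Libraries of the same replicate letter did not vary together across tissues: over 17 same-letter pairs the deviations correlated at -0.112 to 0.0576. This cannot settle whether the letters mark shared animals or days, because a shared animal need not shift both tissues alike. The labels do not say. With the replicate block on letters, 2844 genes were higher and 2438 lower in VAT, with letters within times 2538 and 2114, and the departure called 0 in the edgeR fit, as without it.

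Of the tissue differences of named genes, 1201 values under alternatives kept direction and call, 31 lost the call, 4 gained it and 24 changed sign. Hsp90ab1 turned positive with the letter block (0.00177), in the 35-library fit (0.00797) and at ZT20 alone (0.182), and ran from -0.0724 to 0.0699 leaving out 1 library. Sesn1 turned to -0.369 with library totals, -0.0161 with DESeq2, -0.0662 and -0.0330 with blocks, -0.0176 with the length slope, -0.103 at ZT16 alone, and ran from -0.115 to 0.0972 leaving out 1 library. With library totals Dnaja2 became -0.119, Srsf5 -0.264 and Rbm3 -0.00168. Txnip became 0.0737 at ZT16 alone. Srsf7 became 0.0964 at ZT20 alone and -0.0755 to 0.0274 leaving out 1 library. Dnaja2 lost its call in 8 of 11 fits that left out 1 library, while its value stayed at 0.211 to 0.281. The cause of these shifts was not tested. No departure of the 12 stress genes changed sign, but they were chosen by p in these same data, so a kept sign is no support. At their smallest Per1 was at -0.00227, Xbp1 at 0.0162 and Hspa8 at -0.0576. An unadjusted p under 0.05 held in 11 (Fosb) to 20 (Srsf7 and Hsp90ab1) of 21 settings. Few counts limit the departure: for Mt1, near 0 in spleen, its interval was -17.7 to 19.9.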
